A study of Homo sapiens with 12 samples.

Results

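The genes described are those of cholesterol and fatty acid synthesis, with the proteins that control them. The list holds 35 genes, chosen by their place in the pathway but with earlier results of these data known. Of these, 32 were measured among 18404 named genes. They comprise 16 genes of sterol synthesis (7 of the mevalonate arm, 9 of the sterol arm), 10 of fatty acid synthesis, and 6 of regulation and transport. HSD17B7 is carried only by a probe set annotated with several genes and was left out. FDFT1 and ACSL3 were not analysed here.

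The data are 12 arrays of total RNA from cultured human melanoma cells, the established lines A375 and A2058, both labelled BRAF V600E. The source label of the A375 samples is A375p, and they are called A375 here as in their titles. The groups, of 3 arrays each, are A375 with vemurafenib, A375 with DMSO, A2058 with vemurafenib and A2058 with DMSO. Vemurafenib inhibits mutant BRAF, the kinase upstream of MEK and ERK, and DMSO was the vehicle. According to the labels' protocols, A375p cells received 1 µM vemurafenib for 72 h with renewal every 24 h, and controls received an equal volume of DMSO. The same text stands on the A2058 samples, so dose and time for that line rest on its being shared. Each line stands for 1 genetic background, and the labels do not say whether the arrays of a group came from separate cultures, so the p-values measure the spread between arrays.

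Cholesterol is made from acetyl-CoA by way of mevalonate, squalene and lanosterol, and the same acetyl-CoA pool feeds fatty acid synthesis. Both routes are switched on by SREBP transcription factors, which SCAP escorts out of the endoplasmic reticulum when membrane sterol is low and INSIG proteins hold back when it is high. SREBF2 mainly drives the sterol genes, and SREBF1 mainly the fatty acid genes. Oxysterols act in the other direction through LXR receptors, which raise ABCA1 and SREBF1.

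The promoters of the members are shown first, because SREBP binds at a sterol regulatory element, often beside a CCAAT box, and these letters can be read directly. RefSeq promoter sequence (GRCh38.p14) was at hand for 29 of the 32 measured members, with 38 start windows in all. None was at hand for SQLE, FASN and ACAT2. The sterol regulatory element core, spelled TCACNCCAC, was searched on both strands in the 250 bases before each start. It was found in 1 of the 38 windows (2.63%), that of SREBF2, against 0.88% of all 35116 windows of that length. Only this spelling was searched, so a window without a match may still hold the element spelled otherwise. The CCAAT box, which binds NF-Y, a common partner of SREBP, was found in 23 of the 38 windows (60.53%), against 32.01% of all windows. By branch these were 14 of 19 sterol synthesis windows, 6 of 13 fatty acid windows and 3 of 6 regulator windows. Of the 29 members, 19 held a CCAAT box in at least 1 window. The printed stretches come from members picked by name and were placed over the most matches. That they hold boxes was therefore fixed by the choice. Each printed stretch is 100 bases on the strand of the gene. It lies on GRCh38.p14 at chr22:41832938-41833037 (plus strand) for SREBF2, chr5:43313488-43313587 (minus) for HMGCS1, chr21:46228873-46228972 (minus) for LSS, chr4:165327514-165327613 (plus) for MSMO1, chr11:71448413-71448512 (minus) for DHCR7 and chr10:100346983-100347082 (plus) for SCD. Capitals mark the element core in SREBF2 and CCAAT, or its reverse complement ATTGG, in all.
SREBF2: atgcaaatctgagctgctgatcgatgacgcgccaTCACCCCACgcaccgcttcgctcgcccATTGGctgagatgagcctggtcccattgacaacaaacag
HMGCS1: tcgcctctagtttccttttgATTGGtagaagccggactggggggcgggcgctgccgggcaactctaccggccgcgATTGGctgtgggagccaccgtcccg
LSS: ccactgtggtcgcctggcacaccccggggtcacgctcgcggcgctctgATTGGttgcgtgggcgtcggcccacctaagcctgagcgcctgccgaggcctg
MSMO1: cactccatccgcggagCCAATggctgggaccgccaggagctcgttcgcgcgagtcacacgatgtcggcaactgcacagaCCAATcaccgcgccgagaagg
DHCR7: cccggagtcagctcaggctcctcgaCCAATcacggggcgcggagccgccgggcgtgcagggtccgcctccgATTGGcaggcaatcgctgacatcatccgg
SCD: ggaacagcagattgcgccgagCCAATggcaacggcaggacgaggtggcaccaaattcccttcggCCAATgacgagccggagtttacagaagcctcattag
In SREBF2 the element core lies from 133 to 125 bases before the start, with an ATTGG from 106 to 102. HMGCS1, MSMO1, DHCR7 and SCD each hold a pair of boxes in the stretch shown, and LSS holds 1. A match is a description of these letters and was not tested as a site.

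All values below are deposited log2 expression values, and changes are differences of group means ± SE from 1 limma fit over the 12 arrays. A gene is said to have risen or fallen when its Benjamini-Hochberg adjusted p over all 18404 genes was under 0.05. Replicate 1 of A375 with vemurafenib stood apart: it correlated at 0.9939 and 0.9941 with its partners, against 0.9978 to 0.9989 for the other pairs within groups. The median SD of a member was 0.0941 in A375 with vemurafenib, against 0.0488 in A375 with DMSO, 0.042 in A2058 with vemurafenib and 0.0601 in A2058 with DMSO. That array read below both partners for 18 of the 32 members and above both for 8, and over all 18404 genes below both for 7425 and above both for 8350. A375 counts are therefore also given without it. The ERK phosphatase gene DUSP6 fell in A375 (-1.69 ± 0.055) and in A2058 (-2.63 ± 0.055), as did the ERK inhibitor SPRY4 (-3.91 ± 0.060 in A375, -3.00 ± 0.060 in A2058). SOX10, MITF and S100B, markers of the melanocyte lineage, averaged 8.35 or more in every group. The pigment genes TYR and MLANA were low in A375, at 4.57 and 4.54 with vemurafenib and 4.57 and 4.44 with DMSO. In A2058, TYR averaged 11.38 with vemurafenib and 10.93 with DMSO, and MLANA 7.08 and 4.75. Of the 7 measured melanocyte markers, 6 rose in A2058, led by TYRP1 (3.26 ± 0.13), PMEL (2.43 ± 0.055) and MLANA (2.33 ± 0.047), S100B not being called. In A375, S100B (1.01 ± 0.040), MITF (0.73 ± 0.047) and TYRP1 (0.38 ± 0.13) rose and SOX10 fell (-0.15 ± 0.044). Over the 4 groups the immune markers averaged 4.15 to 4.66, the endothelial 4.59 to 4.89, and the epithelial and fibroblast markers 4.26 to 6.43.

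In A375 with vemurafenib, the sterol synthesis genes had calls in both directions. Of 16 measured, 4 rose (HMGCS1, IDI1, LSS and NSDHL), 4 fell (DHCR7, CYP51A1, SQLE and FDPS) and 8 were not called, where 17.7% of all genes rose and 19.3% fell. Both counts lie near those shares and were not tested against them. The median change was -0.0882, against 0.00419 over all genes. In bulk RNA, fewer cells using a gene and less RNA per cell cannot be told apart. The fall of DHCR7 was the largest change in either direction among the members. That of CYP51A1 came next on the probe set used, but was -0.668 with both its probe sets averaged. Both enzymes act after lanosterol has formed. So do NSDHL, which rose, and MSMO1, EBP, SC5D and TM7SF2, which were not called. Without replicate 1 of A375 with vemurafenib, 5 rose and 5 fell: SC5D joined the rises, PMVK and TM7SF2 joined the falls, and FDPS was lost (adjusted p = 0.0503). Over all 18404 genes, the A375 calls in either direction grew as well without that array, from 6816 to 7785.

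In A2058 the same enzymes moved one way. Of the 16, 12 rose and none fell, where 14.6% of all genes rose and 12.5% fell. Across the left-out arrays the count of rises ran from 10 to 13, and the count of falls stayed at 0; at an unadjusted p under 0.05 there was also no fall. The median change was 0.294, against 0.00635 over all genes. The melanocyte markers named above moved with these rises, and their part in the result was not tested. The 4 members not called were FDPS (0.099 ± 0.055), ACAT2 (0.22 ± 0.10), PMVK (-0.0015 ± 0.062) and TM7SF2 (-0.013 ± 0.096). ACAT2 was called up with the A2058 groups fitted alone (adjusted p = 0.00712) and with array weights (0.0253).

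**Figure D1:**
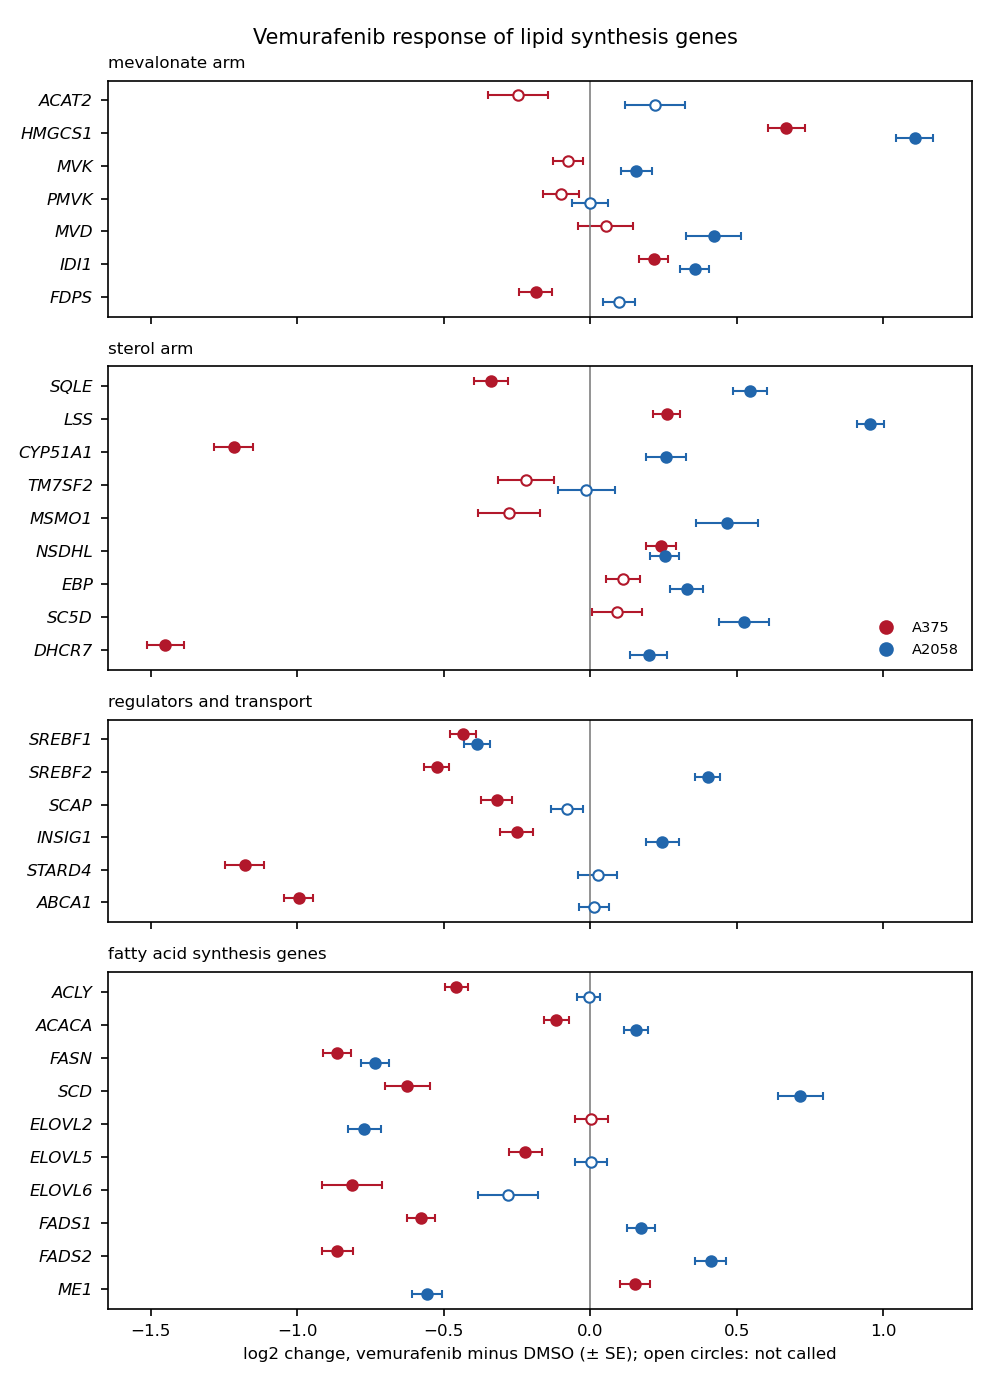
Log2 change with vemurafenib (vemurafenib minus DMSO, ± SE of the limma fit, 3 arrays per group) for the 32 measured members, by branch, in A375 (red) and A2058 (blue); filled circles are called at adjusted p under 0.05 and open circles are not. Most A375 points lie left of the A2058 point of the same gene, with DHCR7 (-1.45 in A375, 0.20 in A2058) farthest apart.

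Among the early enzymes, HMGCS1, the HMG-CoA synthase, rose in both lines. It read 7.42, 7.59 and 7.58 in A375 with vemurafenib, against 6.79, 6.89 and 6.90 with DMSO (0.67 ± 0.062, adjusted p = 1.9e-06). In A2058 it read 9.39, 9.37 and 9.23 with vemurafenib, against 8.20, 8.17 and 8.31 with DMSO (1.11 ± 0.062, adjusted p = 3.39e-08). All 3 treated arrays lay above all 3 DMSO arrays in each line, and the A2058 rise, 2.15-fold, was the largest of any member in that line. IDI1, which isomerises isopentenyl diphosphate, also rose in both lines, by 0.22 ± 0.049 in A375 and 0.36 ± 0.049 in A2058. The kinase MVK (0.16 ± 0.052, adjusted p = 0.0398) and the decarboxylase MVD (0.42 ± 0.093) rose in A2058. Their A375 changes were -0.076 ± 0.052 and 0.053 ± 0.093, neither called. The MVK rise in A2058 was lost without any array of A375 with DMSO, or without replicate 1 or 3 of either A2058 group, with an adjusted p up to 0.165. FDPS, the farnesyl diphosphate synthase, fell in A375 (-0.19 ± 0.055, adjusted p = 0.0173), a call also lost without replicate 2 or 3 of A375 with DMSO (0.0603 and 0.0691).

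The enzymes from squalene onward follow. SQLE, the squalene epoxidase that limits the later pathway, read 7.59, 7.64 and 7.84 in A375 with vemurafenib, against 8.04, 7.99 and 8.06 with DMSO (-0.34 ± 0.058, adjusted p = 0.000407). In A2058 it read 8.84, 8.82 and 8.76 with vemurafenib, against 8.21, 8.27 and 8.29 with DMSO (0.55 ± 0.058, adjusted p = 1.26e-05). The gene thus fell in one line and rose in the other, with no overlap between treated and control arrays in either. LSS, which closes the ring to lanosterol, rose in both: 7.72, 7.66 and 7.71 in A375 with vemurafenib, against 7.44, 7.38 and 7.48 with DMSO (0.26 ± 0.046, adjusted p = 0.000525). Its A2058 values were 8.47, 8.52 and 8.43 with vemurafenib, against 7.59, 7.46 and 7.50 with DMSO (0.96 ± 0.046, adjusted p = 8.08e-09), a rise of 1.94-fold.

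CYP51A1, the lanosterol demethylase, read 7.41, 7.53 and 7.74 in A375 with vemurafenib, against 8.76, 8.80 and 8.78 with DMSO (-1.22 ± 0.068, adjusted p = 1.47e-08). The A2058 arrays gave 9.99, 10.02 and 10.01 with vemurafenib, against 9.73, 9.70 and 9.81 with DMSO (0.26 ± 0.068, adjusted p = 0.0119). The A375 fall was 2.32-fold and the A2058 rise 1.2-fold. This gene has another, dimmer probe set, on which the A375 difference was -0.12 (means 5.87 with vemurafenib and 5.99 with DMSO) and the A2058 difference 0.339. With both probe sets averaged, the A375 change was -0.668 (adjusted p = 0.000436) and the A2058 change 0.299 (adjusted p = 0.0792), so the size of the fall depends on the probe set and the A2058 call is lost.

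DHCR7, the reductase of the last step to cholesterol, read 7.35, 7.52 and 7.23 in A375 with vemurafenib, against 8.84, 8.75 and 8.86 with DMSO (-1.45 ± 0.063, adjusted p = 1.21e-09), a fall of 2.73-fold. In A2058 the values were 9.09, 9.13 and 9.10 with vemurafenib, against 8.88, 8.88 and 8.95 with DMSO (0.20 ± 0.063, adjusted p = 0.0317). The A375 groups stood more than 1 log2 unit apart. The A2058 rise was small, and its adjusted p was 0.0572 with replicate number as a block and 0.0841 with arrays centred on their medians. The call was also lost without any array of A2058 with vemurafenib, or without replicate 1 or 2 of A2058 with DMSO (adjusted p up to 0.0966). NSDHL, a dehydrogenase of the demethylation steps, rose in both lines: 8.64, 8.79 and 8.80 in A375 with vemurafenib, against 8.49, 8.50 and 8.51 with DMSO (0.24 ± 0.051, adjusted p = 0.00194), and 8.94, 8.96 and 8.95 in A2058 with vemurafenib, against 8.72, 8.61 and 8.76 with DMSO (0.25 ± 0.051, adjusted p = 0.00215). MSMO1, the methylsterol oxidase, rose in A2058 (0.47 ± 0.11, adjusted p = 0.00488) and changed by -0.28 ± 0.11 in A375, which was not called (adjusted p = 0.0594). The isomerase EBP (0.33 ± 0.058) and the desaturase SC5D (0.53 ± 0.085) rose in A2058, with uncalled A375 changes of 0.11 ± 0.058 and 0.091 ± 0.085. TM7SF2, a sterol reductase, was called in neither line with all arrays, and fell in A375 without replicate 1 of A375 with vemurafenib (-0.35, adjusted p = 0.000381).

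**Figure D2:**
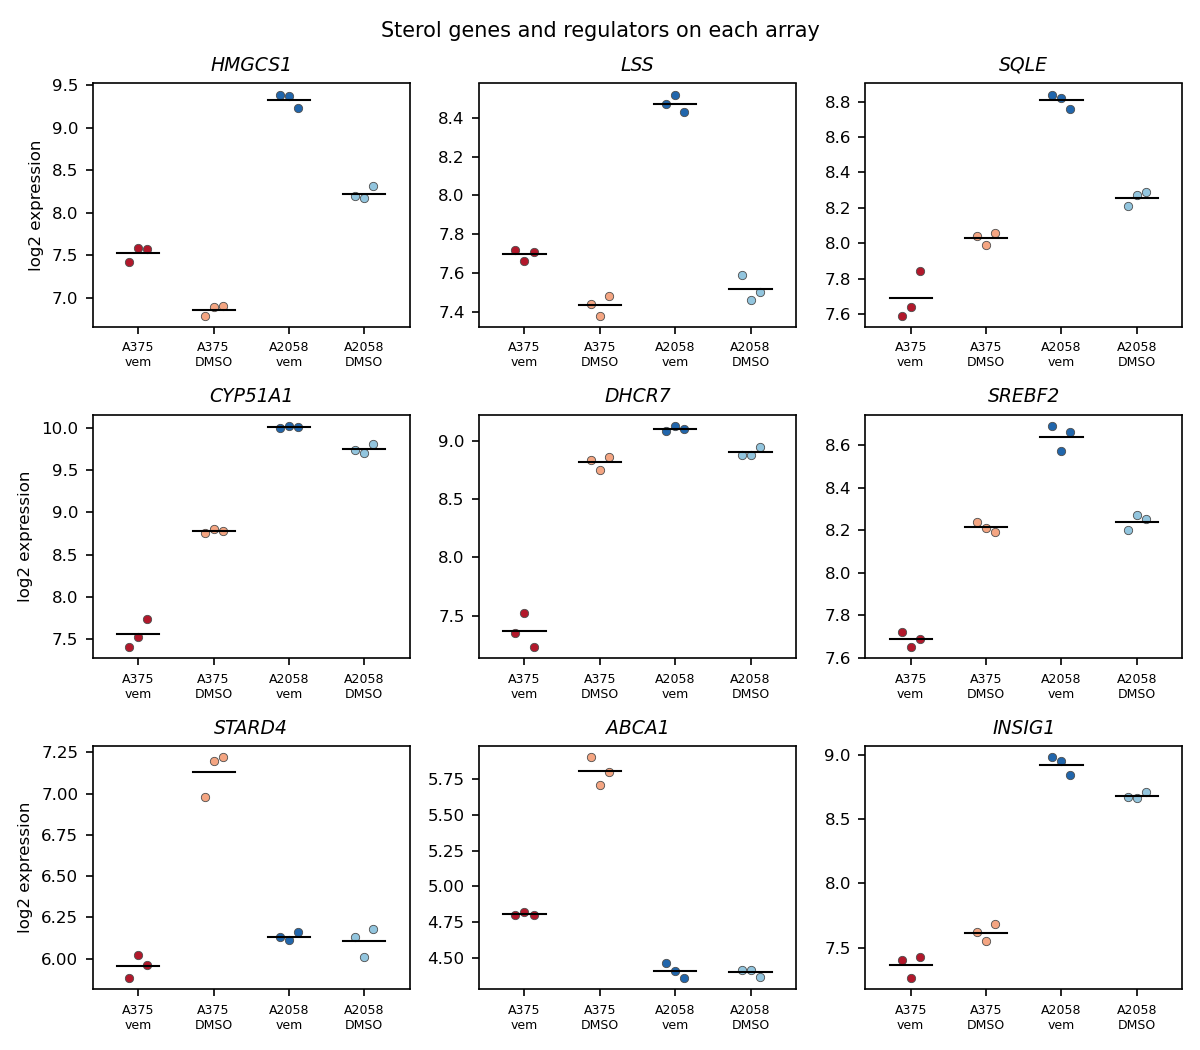
Log2 expression of 9 sterol genes and regulators on each array; every point is 1 array, the bars are group means of 3 arrays, and each panel has its own axis, which does not start at 0. SQLE, CYP51A1, DHCR7, SREBF2 and INSIG1 are lower with vemurafenib in A375 and higher with it in A2058, HMGCS1 and LSS are higher in both lines, and STARD4 and ABCA1 are lower in A375.

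The regulators and transporters fell together in A375. All 6 were called down there, where 19.3% of all genes fell with all arrays. The 6 were also called down without replicate 1 of A375 with vemurafenib, where calls over all genes were more numerous. Their median with all arrays was -0.479, against 0.00419 over all genes. In A2058, 2 rose, 1 fell and 3 were not called, where 14.6% of all genes rose and 12.5% fell, and the median was 0.0198. When a change of at least 1.5-fold was asked for as well, only STARD4 and ABCA1 kept their A375 falls, where 5.53% of all genes fell. No A2058 call of this branch was kept.

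SREBF2, the main activator of sterol genes, read 7.72, 7.65 and 7.69 in A375 with vemurafenib, against 8.24, 8.21 and 8.19 with DMSO (-0.52 ± 0.043, adjusted p = 6.53e-07). In A2058 it read 8.69, 8.57 and 8.66 with vemurafenib, against 8.20, 8.27 and 8.25 with DMSO (0.40 ± 0.043, adjusted p = 1.41e-05). These are opposite calls of similar size, with groups that do not overlap in either line. INSIG1, which retains SREBP in the endoplasmic reticulum and is itself an SREBP target, followed the same pattern. Its values were 7.40, 7.26 and 7.43 in A375 with vemurafenib, against 7.62, 7.55 and 7.68 with DMSO (-0.25 ± 0.056, adjusted p = 0.00307). For A2058 they were 8.98, 8.95 and 8.84 with vemurafenib, against 8.67, 8.66 and 8.71 with DMSO (0.25 ± 0.056, adjusted p = 0.00517). SREBF1, the main activator of fatty acid genes, was one of 2 members that fell in both lines. Its arrays gave 7.59, 7.50 and 7.48 in A375 with vemurafenib, against 7.97, 7.88 and 8.01 with DMSO (-0.43 ± 0.045, adjusted p = 5.46e-06), and 7.31, 7.26 and 7.32 in A2058 with vemurafenib, against 7.66, 7.70 and 7.70 with DMSO (-0.39 ± 0.045, adjusted p = 2.9e-05). The escort protein SCAP fell in A375 (-0.32 ± 0.053, adjusted p = 0.000343) and changed by -0.079 ± 0.053 in A2058, not called.

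STARD4, which carries cholesterol between membranes, read 5.88, 6.02 and 5.96 in A375 with vemurafenib, against 6.98, 7.20 and 7.22 with DMSO (-1.18 ± 0.066, adjusted p = 1.6e-08). The A2058 values were 6.13, 6.11 and 6.16 with vemurafenib, against 6.13, 6.01 and 6.18 with DMSO (0.026 ± 0.066, adjusted p = 0.874). The 3 arrays of A375 with DMSO lay above all others. ABCA1, the pump that exports cholesterol, was likewise highest in A375 with DMSO: 4.80, 4.82 and 4.80 in A375 with vemurafenib, against 5.90, 5.71 and 5.80 with DMSO (-0.99 ± 0.050, adjusted p = 5.14e-09). In A2058 it read 4.47, 4.41 and 4.36 with vemurafenib, against 4.42, 4.42 and 4.37 with DMSO (0.013 ± 0.050, adjusted p = 0.92). Those A2058 levels lie below the lower quartile of all genes in each group (4.78), where a change would be compressed. The A375 mean with vemurafenib, 4.81, lies near the lower quartile of that group (4.79), so the size of the A375 fall is limited too.

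Most of the fatty acid branch also fell in A375. Of 10 measured genes 8 fell, 1 rose (ME1) and 1 was not called (ELOVL2), where 19.3% of all genes fell and 17.7% rose. The median was -0.517, against 0.00419 over all genes. Without replicate 1 of A375 with vemurafenib 7 fell, ACACA being lost at an adjusted p of 0.12. The rise of ME1 was lost without any 1 array of A375 with DMSO or without replicate 2 or 3 of A375 with vemurafenib. In A2058 the branch was divided: SCD, FADS2, FADS1 and ACACA rose, ELOVL2, FASN and ME1 fell, and ACLY, ELOVL5 and ELOVL6 were not called, where 14.6% of all genes rose and 12.5% fell. The A2058 median was -0.00139, against 0.00635 over all genes. When each array was centred on its own median, ACACA and FADS1 were no longer called and 2 genes rose.

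FASN, the synthase that builds palmitate, fell in both lines. It read 8.17, 8.07 and 8.15 in A375 with vemurafenib, against 9.01, 8.91 and 9.06 with DMSO (-0.86 ± 0.048, adjusted p = 1.37e-08), and 8.65, 8.59 and 8.65 in A2058 with vemurafenib, against 9.32, 9.41 and 9.36 with DMSO (-0.73 ± 0.048, adjusted p = 1.38e-07). These falls, 1.82-fold and 1.66-fold, differed by -0.13 ± 0.068 (adjusted p = 0.203), which was not called. The steps that supply FASN moved less evenly. ACLY, which releases acetyl-CoA from citrate, fell in A375 (-0.46 ± 0.039, adjusted p = 9.92e-07) and changed by -0.0055 ± 0.039 in A2058. ACACA, the carboxylase that makes malonyl-CoA, fell in A375 at the edge of the threshold (-0.12 ± 0.042, adjusted p = 0.0498), a call lost in several settings and without most single arrays, and rose in A2058 (0.16 ± 0.042, adjusted p = 0.0144). ME1, the malic enzyme that supplies NADPH, was the only called rise of the branch in A375: 9.90, 10.03 and 10.07 in A375 with vemurafenib, against 9.83, 9.87 and 9.84 with DMSO (0.15 ± 0.052, adjusted p = 0.033). In A2058 it read 9.14, 9.09 and 9.06 with vemurafenib, against 9.71, 9.57 and 9.69 with DMSO (-0.56 ± 0.052, adjusted p = 3.4e-06), a fall like those of FASN and ELOVL2.

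Desaturases gave the clearest opposition in this branch. SCD, which makes monounsaturated fatty acids, read 9.29, 9.68 and 9.48 in A375 with vemurafenib, against 10.05, 10.12 and 10.15 with DMSO (-0.62 ± 0.077, adjusted p = 2.6e-05). In A2058 the readings were 11.22, 11.25 and 11.30 with vemurafenib, against 10.54, 10.53 and 10.55 with DMSO (0.72 ± 0.077, adjusted p = 1.36e-05). The A375 fall was 1.54-fold and the A2058 rise 1.64-fold, with no overlap of groups. FADS2, which takes the entry step to long polyunsaturated fatty acids, read 7.68, 7.69 and 7.64 in A375 with vemurafenib, against 8.50, 8.49 and 8.61 with DMSO (-0.86 ± 0.053, adjusted p = 3.65e-08). Its A2058 readings were 8.88, 8.97 and 9.07 with vemurafenib, against 8.60, 8.51 and 8.58 with DMSO (0.41 ± 0.053, adjusted p = 6.51e-05). FADS1, the desaturase that acts after it, had the same signs with a smaller A2058 change. It read 9.67, 9.86 and 9.77 in A375 with vemurafenib, against 10.34, 10.31 and 10.37 with DMSO (-0.58 ± 0.047, adjusted p = 5.72e-07), and 9.77, 9.78 and 9.79 in A2058 with vemurafenib, against 9.63, 9.58 and 9.61 with DMSO (0.17 ± 0.047, adjusted p = 0.014).

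The elongases did not share a pattern. ELOVL6, which lengthens palmitate, read 7.26, 7.72 and 7.66 in A375 with vemurafenib, against 8.42, 8.36 and 8.29 with DMSO (-0.81 ± 0.10, adjusted p = 3.21e-05). Its A2058 values were 8.01, 8.05 and 7.98 with vemurafenib, against 8.31, 8.15 and 8.41 with DMSO (-0.28 ± 0.10, adjusted p = 0.0652), not called. ELOVL6 was called there in several other settings, array weights (adjusted p = 0.00199) and the A2058 groups fitted alone (0.00819) among them. It was also called there without replicate 1 of A375 with vemurafenib (0.00242). ELOVL5, an elongase of polyunsaturated fatty acids, fell in A375 (-0.22 ± 0.055, adjusted p = 0.00639) and changed by 0.0027 ± 0.055 in A2058. ELOVL2, which extends the longest of these chains, read 4.78, 4.73 and 4.83 in A375 with vemurafenib, against 4.68, 4.87 and 4.78 with DMSO (0.0039 ± 0.056, adjusted p = 0.973). A2058 gave 9.25, 9.14 and 9.16 with vemurafenib, against 9.95, 9.90 and 10.02 with DMSO (-0.77 ± 0.056, adjusted p = 3.91e-07). The A375 levels lie near the lower quartile of all genes (4.79), where a fall would be compressed, while A2058 held the gene at a high level and lost part of it.

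**Figure D3:**
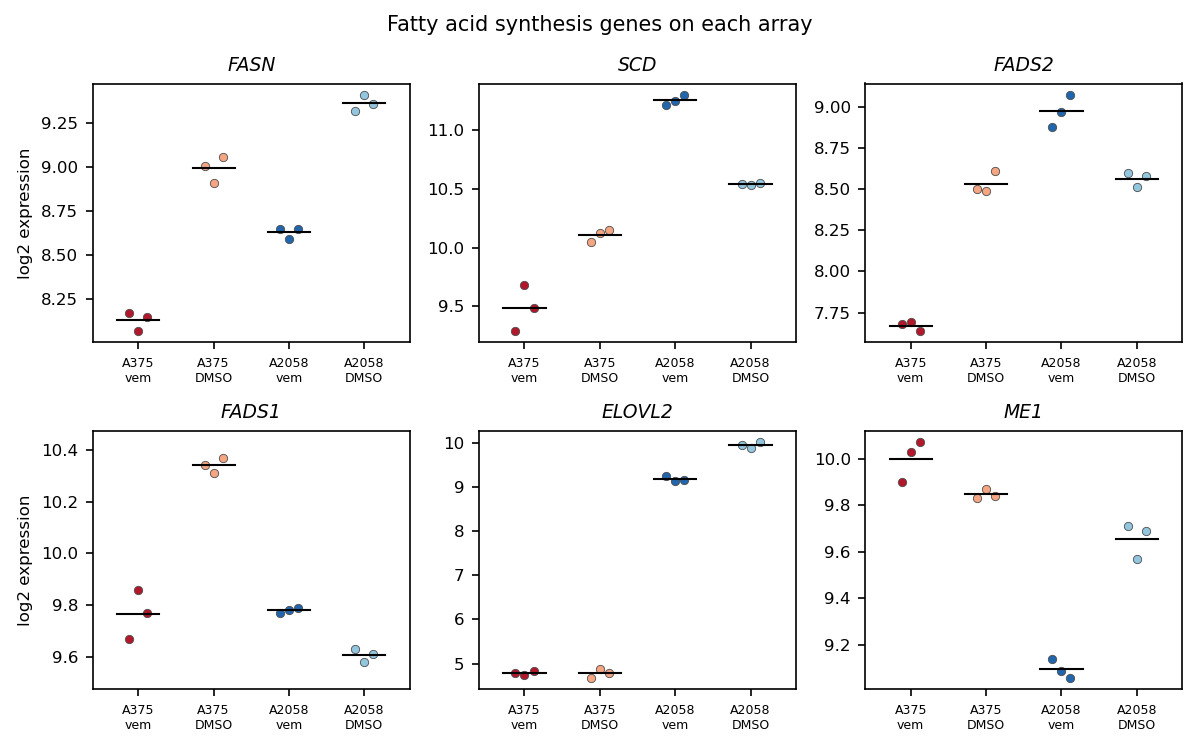
Log2 expression of 6 fatty acid synthesis genes on each array; every point is 1 array, the bars are group means of 3 arrays, and each panel has its own axis, which does not start at 0. FASN is lower with vemurafenib in both lines, SCD, FADS2 and FADS1 are lower in A375 and higher in A2058, and ELOVL2 stays under 5 on every A375 array.

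Set side by side, the calls of the lines were in part opposed and in part shared. Among the 32 members, 9 fell in A375 and rose in A2058 (SQLE, CYP51A1, DHCR7, SREBF2, INSIG1, ACACA, SCD, FADS1 and FADS2), which is 28.1%, where 2.61% of all genes did so. ME1 alone had the opposite pair of calls, which 1.8% of all genes had. HMGCS1, IDI1, LSS and NSDHL rose in both lines (12.5%, against 6.52% of all genes), and SREBF1 and FASN fell in both (6.25%, against 6.85%). ACAT2, PMVK and TM7SF2 were called in neither. Without replicate 1 of A375 with vemurafenib the first group held 8 members, all of them but ACACA, where 3.15% of all genes were so called. SC5D then joined the shared rises (5 members, where 8.42% of all genes rose in both lines). ELOVL6 joined the shared falls (3 members, where 7.57% of all genes fell in both). With its probe sets averaged CYP51A1 left the first group too, and DHCR7 left it without the A2058 arrays named above or with the replicate block. With arrays centred on their medians, the A2058 calls of ACACA, FADS1 and DHCR7 were lost (adjusted p = 0.0676, 0.0798 and 0.0841). When a change of at least 1.5-fold was asked for as well, SCD alone of the 9 kept both calls. SQLE, SREBF2, INSIG1, ACACA and FADS1 fell short in both lines, and CYP51A1, DHCR7 and FADS2 in A2058. The share of all genes with such opposed calls was not counted under that rule. The 2 responses share no arrays but share the fit's estimate of spread.

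The difference of the responses was tested directly. For 22 of 32 members the A375 response was lower than the A2058 response, for 2 it was higher (ELOVL2 and ME1) and for 8 no call was made, where 16.4% of all genes were called lower and 13.1% higher. The median difference was -0.436, against -0.00529 over all genes. Every one of the 16 sterol synthesis genes had a negative difference, from -1.65 to -0.0107, and 10 were called. In fatty acid synthesis 7 were called lower, and among regulators and transporters 5, SREBF1 being the exception (-0.049 ± 0.064, adjusted p = 0.684). Leaving out single arrays gave 8 to 12 sterol and 6 to 7 fatty acid genes called lower. In the mevalonate arm 4 of 7 were called, with differences from -0.469 to -0.0984, and in the sterol arm 6 of 9, with a median of -0.696. DHCR7 (-1.65 ± 0.089, adjusted p = 2.41e-08), CYP51A1 (-1.48 ± 0.096, adjusted p = 1.37e-07) and SQLE (-0.88 ± 0.082, adjusted p = 3.58e-06) differed most among sterol genes, CYP51A1 by -0.967 (adjusted p = 0.000555) with its probe sets averaged. SCD (-1.34 ± 0.11, adjusted p = 1.05e-06), FADS2 (-1.27 ± 0.075, adjusted p = 5.51e-08) and FADS1 (-0.75 ± 0.066, adjusted p = 2.28e-06) had the most negative differences of the fatty acid genes, and ELOVL2 (0.77 ± 0.079, adjusted p = 8.65e-06) and ME1 (0.71 ± 0.073, adjusted p = 8.58e-06) the positive ones. STARD4 (-1.21 ± 0.094, adjusted p = 7.06e-07), ABCA1 (-1.01 ± 0.071, adjusted p = 2.67e-07) and SREBF2 (-0.92 ± 0.061, adjusted p = 1.58e-07) led the regulators and transporters. ABCA1 lay below the lower quartile of all genes in A2058, where a fall would be compressed, which limits its difference. NSDHL (-0.011 ± 0.072, adjusted p = 0.953), PMVK (-0.098 ± 0.088, adjusted p = 0.508) and IDI1 (-0.14 ± 0.070, adjusted p = 0.18) were among the 8 members for which no difference was called.

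The lines given DMSO alone also differed in this pathway. With DMSO, 11 of 16 sterol synthesis genes were lower in A375 than in A2058 and 1 was higher, where 22.5% of all genes were lower and 23.9% higher. All 7 mevalonate genes were lower in A375, from HMGCS1 (-1.37 ± 0.062, adjusted p = 1.59e-09), ACAT2 (-1.20 ± 0.10) and IDI1 (-1.02 ± 0.049) to PMVK (-0.16 ± 0.062, adjusted p = 0.0471). The PMVK call was lost without most single arrays, with an adjusted p up to 0.213. In the sterol arm, MSMO1 (-0.98 ± 0.11) and CYP51A1 (-0.97 ± 0.068) were lower, and TM7SF2 was higher (0.59 ± 0.096, adjusted p = 0.000186). LSS (-0.081 ± 0.046), EBP (-0.13 ± 0.058), SC5D (-0.061 ± 0.085) and DHCR7 (-0.091 ± 0.063) were not called. Among the regulators INSIG1 was lower in A375 (-1.06 ± 0.056, adjusted p = 6.54e-09), SREBF2 was not called (-0.027 ± 0.043, adjusted p = 0.691), and ABCA1 (1.40 ± 0.050), STARD4 (1.03 ± 0.066), SCAP (0.30 ± 0.053) and SREBF1 (0.27 ± 0.045) were higher. The fatty acid genes were split, with 4 higher and 4 lower. ELOVL2 stood far from the rest (-5.18 ± 0.056, adjusted p = 6.87e-15), with an A375 level near the lower quartile of all genes, so no fold is given. FADS1 was highest relative to A2058 (0.74 ± 0.047, adjusted p = 3.81e-08).

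With vemurafenib on both sides the sterol synthesis genes lay further below A2058, by differences of responses of which 10 of 16 were called above. All 15 sterol synthesis genes other than TM7SF2 were lower in A375 than in A2058, where 24.2% of all genes were lower, and 8 of 10 fatty acid genes were lower too. The median sterol difference was -0.875 with vemurafenib and -0.29 with DMSO. Other members came closer together: ELOVL2 (-4.40 with vemurafenib, -5.18 with DMSO), FADS1 (-0.016 and 0.74), ABCA1 (0.39 and 1.40), and SCAP (0.062 and 0.30). The sizes for ELOVL2 and ABCA1 are limited by their dim levels, in A375 and in A2058 respectively. TM7SF2 read 0.38 with vemurafenib and 0.59 with DMSO, a difference of responses that was not called. With vemurafenib the A375 minus A2058 difference was -2.44 ± 0.068 for CYP51A1 (5.44-fold lower in A375; -1.65 with its probe sets averaged), -1.77 ± 0.077 for SCD, -1.74 ± 0.063 for DHCR7 and -1.30 ± 0.053 for FADS2. SREBF2 was lower in treated A375 cells (-0.95 ± 0.043, adjusted p = 1.31e-09), while no difference was called with DMSO. STARD4 was higher in A375 with DMSO; with vemurafenib its difference was -0.18 ± 0.066 (adjusted p = 0.0418), a call lost in several settings and without replicate 1 or 3 of A375 with vemurafenib, any array of A2058 with vemurafenib, or replicate 1 of A2058 with DMSO (adjusted p up to 0.116). ME1 was higher in A375 under both treatments, 0.90 ± 0.052 with vemurafenib and 0.19 ± 0.052 with DMSO. The labels name no array batch, and a batch that followed the lines could not be told apart from them, in the DMSO comparison as well.

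**Figure D4:**
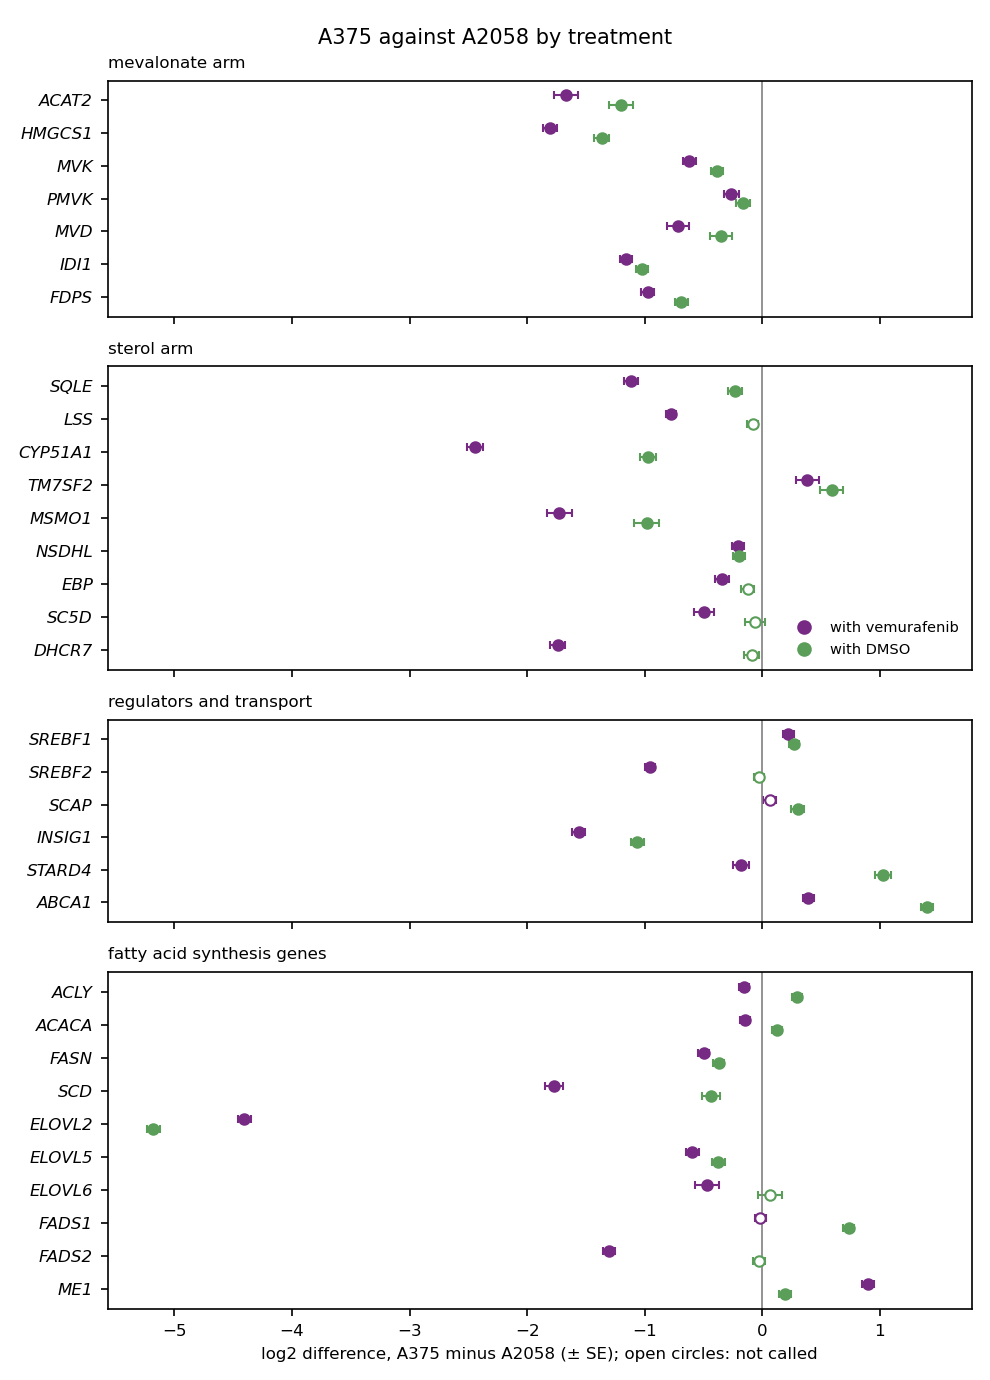
Log2 difference between the lines (A375 minus A2058, ± SE of the limma fit, 3 arrays per group) for the 32 measured members, by branch, with vemurafenib (purple) and with DMSO (green); filled circles are called at adjusted p under 0.05. Of the sterol synthesis genes, TM7SF2 alone lies right of 0, and for most others the vemurafenib point lies farther left than the DMSO point.

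Other genes of lipid metabolism were taken from lists written from general knowledge, also with earlier results of these data known. Of 8 further measured genes of sterol synthesis and SREBP control, 1 rose and 2 fell in A375, and 2 rose and 3 fell in A2058. Among 10 genes of sterol uptake, storage and efflux, 3 rose and 3 fell in A375, and 6 rose and 1 fell in A2058. Of 5 measured LXR genes and targets, 2 rose and 2 fell in A375, and 2 rose and 1 fell in A2058. For 28 other fatty acid and lipid genes the counts were 9 up and 9 down in A375, and 7 up and 5 down in A2058. Over all genes 17.7% rose and 19.3% fell in A375, and 14.6% rose and 12.5% fell in A2058. None of these lists was tested against those shares. CD36, a fatty acid transporter at the cell surface, had the largest rise of these lists in A375: 8.03, 8.66 and 8.69 in A375 with vemurafenib, against 4.18, 4.24 and 4.15 with DMSO (4.27 ± 0.14, adjusted p = 8.94e-11). The DMSO level in A375 is among the lowest of all genes (percentile 4.7), and no detection call was used here, so no fold is given. In A2058 it rose to 5.28, 5.37 and 5.07 with vemurafenib, against 4.42, 4.35 and 4.32 with DMSO (0.88 ± 0.14, adjusted p = 0.00038). The treated A375 arrays lay far above every other array, replicate 1 being the lowest of them. The acyl-CoA synthetases ACSL1 (1.96 ± 0.050, adjusted p = 7.28e-12) and ACSL5 (1.46 ± 0.049, adjusted p = 9.86e-11) rose in A375, with A2058 changes of 0.11 ± 0.050 and 0.039 ± 0.049 that were not called.

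ACSS2, which makes acetyl-CoA from acetate, fell most in A375. It read 6.41, 6.50 and 6.63 in A375 with vemurafenib, against 8.53, 8.60 and 8.59 with DMSO (-2.06 ± 0.056, adjusted p = 1.36e-11). FADS3, a relative of FADS1 and FADS2 (-1.62 ± 0.092, adjusted p = 1.82e-08), and VLDLR, a lipoprotein receptor (-1.60 ± 0.052, adjusted p = 7.45e-11), followed. VLDLR read 6.17, 6.27 and 6.21 in A375 with vemurafenib, against 7.87, 7.78 and 7.79 with DMSO, and its A2058 change was 0.00012 ± 0.052. ACSS2 (-0.24 ± 0.056, adjusted p = 0.00526) and FADS3 (-0.31 ± 0.092, adjusted p = 0.0261) fell in A2058 as well. In A2058 the leading rises beside CD36 were FAXDC2, a relative of the sterol desaturases (1.08 ± 0.043, adjusted p = 1.41e-09), and the sterol hydroxylase CYP27A1 (0.84 ± 0.080, adjusted p = 4.53e-06). The leading falls there were the synthetase ACSL4 (-0.57 ± 0.063, adjusted p = 1.65e-05), INSIG2, a relative of INSIG1 (-0.52 ± 0.096, adjusted p = 0.00121), and the elongase ELOVL4 (-0.47 ± 0.098, adjusted p = 0.00282). These 3 genes fell in A375 too, with changes of -1.29, -0.98 and -1.16.

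**Figure D5:**
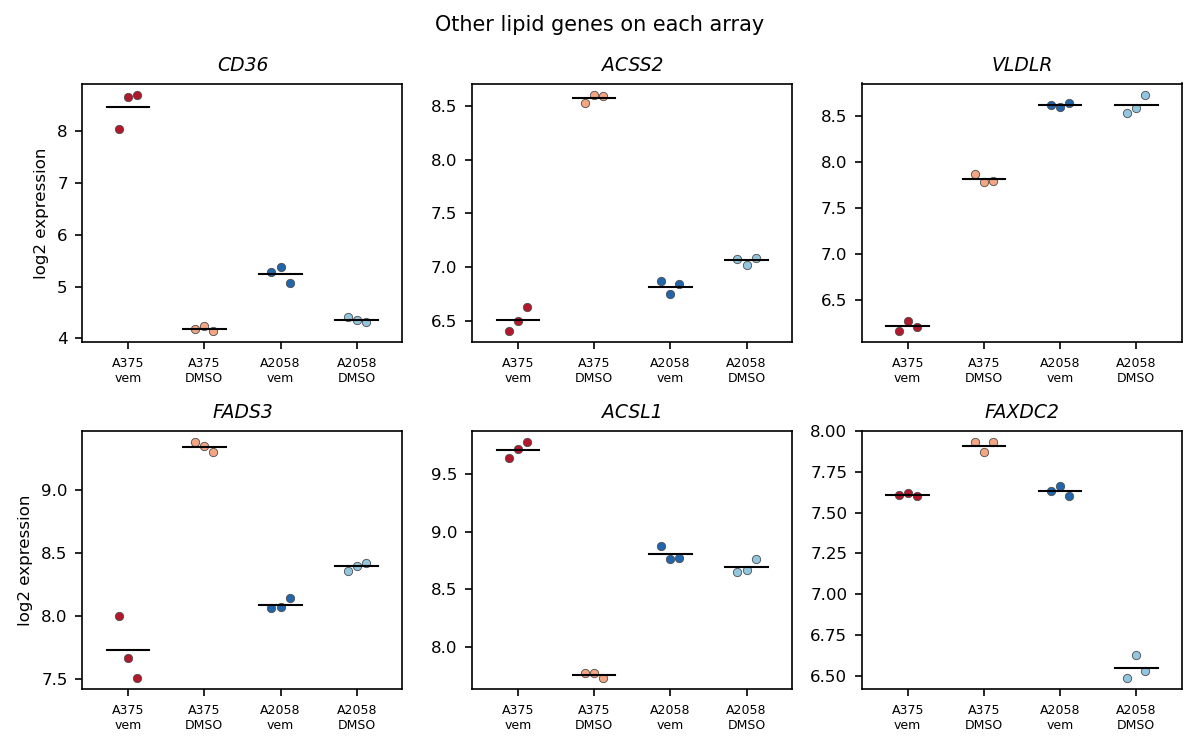
Log2 expression of 6 other lipid genes on each array; every point is 1 array, the bars are group means of 3 arrays, and each panel has its own axis, which does not start at 0. CD36 and ACSL1 are higher and ACSS2, VLDLR, FADS3 and FAXDC2 lower in A375 with vemurafenib than with DMSO, and FAXDC2 is higher with vemurafenib in A2058.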

How the data were processed

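Total RNA of 12 samples was measured on Affymetrix arrays, and the authors deposited log2 expression values for 32321 probe sets. Per the submitters' processing notes, R 3.0.1 and affy were used; background correction and summary are not described there. The deposited values ran from 3.24 to 13.08 and were used unchanged. The platform annotation gave 19158 probe sets a single symbol, 1388 several and 11775 none. Where a gene had more than 1, only the probe set of highest mean entered, which left 18404 genes. No 2 arrays were identical.

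limma 3.58.1 (R 4.3.3) fitted 4 group means to the 12 arrays, with 8 residual degrees of freedom and 5 contrasts. Tests were two-sided, adjusted by Benjamini-Hochberg over all genes and called under 0.05; the fit was tested on simulated data. With 3 arrays per group, their number limits the precision. The members and lists were chosen with earlier results of these data known. Values on every array were given for 9 genes whatever their result (HMGCS1, SQLE, LSS, INSIG1, SREBF1, SREBF2, FASN, SCD and ABCA1) and for the 3 largest called rises and falls of each branch in each vemurafenib contrast and in the difference of responses. From the wider lists, up to 3 called genes were named in each direction. The labels state no pairing by replicate number, so the main fit used none. Deviations of same-numbered arrays correlated at -0.294 to 0.1, which with 3 arrays per group cannot exclude a pairing. Alternatives changed the prior, array weights, normalization, dim-gene filter, probe set rule, arrays in the fit, replicate block and call rule, and left out each array. Sequences are from RefSeq (GRCh38.p14).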

Additional observations from a re-analysis of the deposited data

Results flagged for a closer look

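For 24 of the 32 members, the test of the difference itself called the A375 response and the A2058 response to vemurafenib unequal (limma, Benjamini-Hochberg adjusted p under 0.05; A375 minus A2058, log2). In the mevalonate arm the differences were -0.47 for ACAT2, -0.44 for HMGCS1, -0.23 for MVK and -0.28 for FDPS. In the sterol arm they were -0.88 for SQLE, -0.7 for LSS, -1.48 for CYP51A1, -0.75 for MSMO1, -0.43 for SC5D and -1.65 for DHCR7. Regulators and transporters gave -0.92 for SREBF2, -0.24 for SCAP, -0.5 for INSIG1, -1.2 for STARD4 and -1.01 for ABCA1, whose A2058 level was below the lower quartile of genes. Fatty acid genes gave -0.45 for ACLY, -0.27 for ACACA, -1.34 for SCD, -0.22 for ELOVL5, -0.53 for ELOVL6, -0.75 for FADS1 and -1.27 for FADS2. ELOVL2 (0.77) and ME1 (0.71) were the members with a positive difference, ELOVL2 from a level near the lower quartile of genes in A375. The weakest of these calls were ELOVL5 (adjusted p = 0.0491), SCAP (0.0301), MVK (0.0294) and ACAT2 (0.0269). No outlier test of single values was run in groups of 3 arrays; the array that stood apart and the counts without it are given with the results.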

How the results depend on the processing

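No member's direction reversed after a call under any alternative run. Asking for a change of at least 1.5-fold as well left 1 sterol gene up (4 without that demand), 2 down (4), 0 fatty acid genes up (1) and 4 down (8) in A375, and 2 sterol genes (12) and 1 fatty acid gene (4) up in A2058. Under that rule the difference of responses kept 5 sterol (10) and 3 fatty acid genes (7) lower. Of the 9 members that fell in A375 and rose in A2058, SCD alone kept both calls under it. Of the regulators and transporters, STARD4 and ABCA1 kept their A375 falls, and no A2058 call was kept. With DMSO, 6 sterol genes (11) and 1 fatty acid gene (4) were lower in A375 and 1 fatty acid gene (4) higher; with vemurafenib, 4 fatty acid genes (8) were lower and 0 sterol genes (1) higher. Of all genes, that rule called 2.7% (A2058 rises) to 8.94% (lower in A375 with vemurafenib). The single fatty acid rise in A375, ME1, became 0 with arrays centred on their medians, with the 2 groups fitted alone and with replicate number as a block. Fatty acid rises in A2058 became 2 with centred arrays. The labels state no pairing by replicate number, and none could be excluded. With the block, 10 sterol genes rose in A2058 and 9 had a lower response in A375. Leaving out single arrays gave 4 to 5 sterol genes up, 3 to 6 down, 0 to 1 fatty acid genes up and 7 to 8 down in A375, and 10 to 13 sterol genes and 3 to 4 fatty acid genes up in A2058. Of single-member results, 81 lost and 17 gained a call when 1 array was left out, against 1822 that did neither. In the other settings 36 lost and 22 gained a call, against 1185. Dim members, such as ELOVL2 in A375 and ABCA1 in A2058, limit what a fall could show. The causes of these shifts were not tested.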
